A study of Mus musculus with 12 samples.

Results

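The miR-15 and miR-16 family was examined in small RNA counts from extracellular vesicles, the membrane particles that cells release. The vesicles came from mesenchymal stem cells of mouse bone marrow, kept in culture. The members were 7 rows of the count table chosen by name, of 1978 rows with mouse miRNA names: mmu-miR-16-5p, mmu-miR-15a-5p, mmu-miR-15b-5p, mmu-miR-195a-5p, mmu-miR-322-5p, mmu-miR-497a-5p and mmu-miR-16-2-3p, written below without the prefix mmu for mouse. The first 6 are mature strands from the 5′ side of their hairpins. miR-16-2-3p comes from the 3′ side of one of the hairpins that also give miR-16-5p, so the pair allowed a comparison of both arms.

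The cells came from C57BL/6 mice kept at SPF grade, and every library carries the same treatment label, an antigen intervention. The design text describes an exposure of 48 h to ESPs, HCF or pLL at 2 µg/ml, and the title names hydatid antigen. The labels give 4 groups called DZ, NY, PLL and aFM, and each has libraries lettered A, B and C. They do not say which group, if any, was unstimulated, what DZ, aFM and NY stand for, whether animals were pooled, or whether replicates were separate cultures. The p-values therefore reflect only how these libraries vary, and that variation may be technical. DZ served only as a common reference.

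A miRNA guides the Argonaute complex to messenger RNAs mainly through its seed, bases 2 to 8, and strands with the same seed share most of their predicted targets. The miR-15 and miR-16 family is known for restraining BCL2 and the G1 cyclins, and the gene pair for miR-15a and miR-16-1 is lost in many chronic lymphocytic leukaemias. miR-195 and miR-497 form another pair that slows the cell cycle. miR-322, called miR-424 in humans, is studied in muscle and vascular cells. The 5p strand of miR-16 is usually treated as its functional strand, or guide, and the 3p strand as its by-product, or passenger.

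The mature sequences are shown because they separate the members into the 5p strands, which share a seed, and miR-16-2-3p, which does not. Capitals mark the seed, and all 7 sequences were matched by name in RefSeq (build GRCm38.p6).
miR-16-5p: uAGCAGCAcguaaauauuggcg
miR-15a-5p: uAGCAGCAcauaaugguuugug
miR-15b-5p: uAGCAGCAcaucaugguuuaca
miR-195a-5p: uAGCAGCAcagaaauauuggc
miR-322-5p: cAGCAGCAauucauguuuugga
miR-497a-5p: cAGCAGCAcacugugguuugua
miR-16-2-3p: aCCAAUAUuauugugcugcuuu

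All 6 of the 5p strands carried the seed AGCAGCA. miR-16-2-3p carried CCAAUAU, and of the 1679 annotated rows with a sequence it was the only one with that seed. The strands were 21 or 22 bases long, so levels of different members are set side by side as CPM, annotated counts brought to a common library total and scaled with TMM factors. Adapter ligation can favour one sequence over another, and its part in differences between members was not tested. The annotated sequence nearest to miR-16-5p was miR-195a-5p, 3 single-base edits away, and the nearest to miR-16-2-3p were 6 edits away. How the authors treated mismatched reads is not given in the sources used here, so a split of reads between miR-16-5p and miR-195a-5p is uncertain.

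Both hairpins that hold miR-16-5p are printed with their mature arms in capitals, to show that the 5p strand is the same in both whereas the 3p strands differ.
Mir16-2: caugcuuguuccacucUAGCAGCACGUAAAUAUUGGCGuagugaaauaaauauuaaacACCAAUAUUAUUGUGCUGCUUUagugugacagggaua
Mir16-1: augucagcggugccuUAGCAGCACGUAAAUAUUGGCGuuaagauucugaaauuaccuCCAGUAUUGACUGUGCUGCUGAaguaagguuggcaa

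Mir16-2 lies at chr3:69009902-69009996 on the plus strand in GRCm38.p6, 66 bases from the Mir15b hairpin, and both lie in an intron of Smc4, a condensin subunit gene, on the same strand. Mir16-1 lies at chr14:61631880-61631972 on the minus strand, in an intron of the noncoding RNA gene Dleu2, on the same strand, as does Mir15a. A count of miR-16-5p can therefore come from either locus, whereas miR-16-2-3p names Mir16-2. Among reads counted as miR-16-5p, the total is an upper limit for what Mir16-2 alone gave. Any of its reads counted as miR-195a-5p, or lost in ligation, would lie outside that limit.

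The libraries held 17607 to 60436 annotated counts, 10.3% to 60.7% of their totals. Where a member had 0 counts, up to 3 counts (67.9 to 183 CPM, depending on the library) could have been missed by chance. Such limits and intervals cover counting error alone, because reads lacking molecular identifiers need not be separate molecules. PLL replicate A stood apart: in chi-square tests over annotated rows it differed from the other PLL libraries by 64.6 and 71.6 per degree of freedom, against 5.42 to 27.1 for the other replicate pairs. Of 7 mesenchymal marker miRNAs, all 7 were counted, led by miR-143-3p. Markers of blood cells were counted too, with 5 of 5 erythroid and 6 of 6 leukocyte markers above 0 in some library.

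The family was scarce in these libraries, and most counts of its 7 members were of miR-16-2-3p, the passenger arm of miR-16. Other 3p arms of the family are not among the 7. The 7 members together had 554 counts in 12 libraries, 0.155% of all annotated counts. miR-16-2-3p had 439 of them, or 79.2%, and ranked 68 among annotated miRNAs by total count. miR-16-5p followed with 68 counts at rank 144. miR-195a-5p had 20, miR-15b-5p 12, miR-497a-5p 8, miR-322-5p 4 and miR-15a-5p 3. The 6 seed-sharing strands thus added up to 115 counts, 0.0322% of annotated counts.

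**Figure D1:**
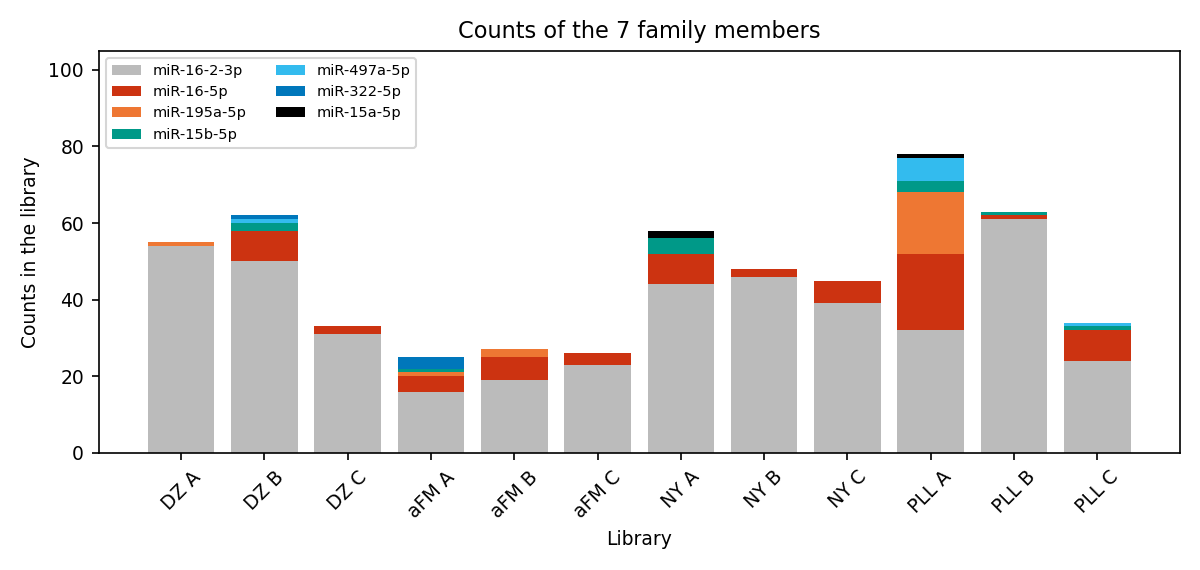
Counts of the 7 members (y axis) in each of the 12 libraries (x axis), stacked by member. miR-16-2-3p is in grey; in PLL replicate A the 5p strands together held 46 counts and miR-16-2-3p 32.

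Summed over the members, the family took 0.262% ± 0.114 of annotated counts in the DZ libraries, 0.163% ± 0.0281 in NY, 0.142% ± 0.0316 in PLL and 0.0996% ± 0.0108 in aFM (SD, n = 3). The lowest DZ library, at 0.133%, lay within the PLL range, below NY and above the 3 aFM libraries, which ran from 0.0878% to 0.109%. Of the pooled family counts, miR-16-2-3p made up 90.0% for DZ, 85.4% for NY, 74.4% for aFM and 66.9% for PLL. In PLL replicate A it was 41.0%, and in the other 11 libraries 64.0% to 98.2%.

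The arms of miR-16 were compared within libraries, where scaling plays no part. miR-16-2-3p outnumbered miR-16-5p in 12 of 12 libraries, with 439 against 68 counts in all, a ratio of 6.46. In DZ the counts of miR-16-5p against miR-16-2-3p were 0 and 54 in replicate A, 8 and 50 in B, and 2 and 31 in C. In NY they were 8 and 44, 2 and 46, and 6 and 39. In both groups no library had a 3p share of both arms under 84.6%. The aFM libraries had 4 and 16, 6 and 19, and 3 and 23. The PLL libraries had 20 and 32, 1 and 61, and 8 and 24. PLL was the most uneven group. Its replicate A had the lowest 3p share of the 12 libraries, 61.5% (exact 95% binomial interval 47.0% to 74.7%), and its replicate B had 98.4% (91.3% to 100.0%). The interval of PLL replicate A was the only one of the 12 to include equal arms.

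**Figure D2:**
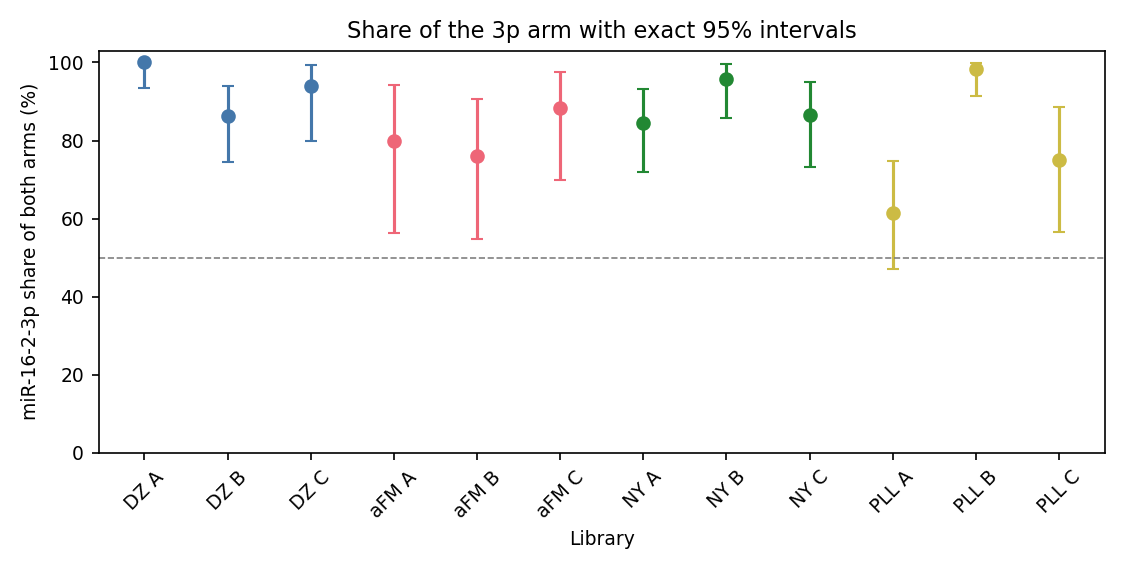
Share of miR-16-2-3p in the counts of both miR-16 arms, in percent (y axis), for each library (x axis), with exact 95% binomial intervals that cover counting error only; the dashed line marks equal arms. The points run from 61.5% in PLL replicate A to 100.0% in DZ replicate A, and the groups overlap.

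The log2 ratio of miR-16-5p to miR-16-2-3p, with 0.5 added to each count, averaged -4.33 ± 2.18 in DZ, -3.07 ± 1.00 in NY, -2.52 ± 2.50 in PLL and -2.07 ± 0.61 in aFM (SD, n = 3). An exact permutation test over the 4 groups gave p = 0.475, so the ratio did not differ beyond the spread between libraries. The widest pair was aFM against DZ, which differed by 2.26 (exact two-sided permutation p = 0.2, adjusted p = 0.8 over 6 pairs). With 3 against 3 the smallest exact p is 0.1. miR-16-5p had 0 to 20 counts in a library, and the binomial intervals of PLL replicates A and B did not overlap.

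An excess of one arm is common in the table. Among 89 hairpins whose arms have 1 row each and at least 100 counts together, the 3p strand had more counts in 32, and the 3p share lay between 20% and 80% in 4. The Mir16-2 share over all libraries, 86.6%, was passed by 27 hairpins. The strands were not sorted into guides and passengers, so these counts do not say how often a passenger outnumbers its guide. Hairpins with the same mature strand share its counts, so these numbers are not independent. Elsewhere in the family the counts were lower. miR-15b-3p, the other arm of miR-15b and a neighbour of miR-16-2-3p on chromosome 3, had 24 counts against 12 for miR-15b-5p. miR-322-3p had 11 counts against 4 for miR-322-5p, and miR-195a-3p 9 against 20. miR-16-1-3p, the passenger arm of the Dleu2 hairpin, had 7 counts in all, so that of the 2 miR-16 passenger strands nearly all counts named Mir16-2. miR-15a-3p and miR-497a-3p were at 0 in all libraries.

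**Figure D3:**
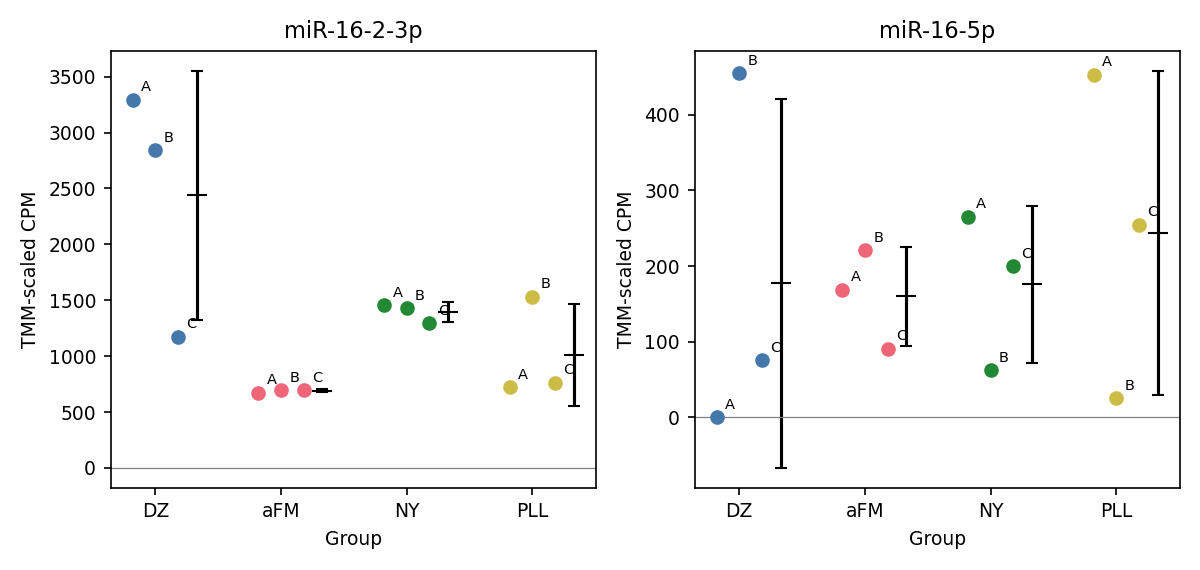
TMM-scaled CPM (y axis) of miR-16-2-3p, left, and miR-16-5p, right, by group (x axis); points are replicates A, B and C, and black bars the mean and SD (n = 3). For miR-16-2-3p the aFM libraries, 675 to 699 CPM, lie below all others, and for miR-16-5p all groups overlap.

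miR-16-2-3p was the only member that passed the filter on low counts, one of 132 miRNAs tested. It stood at 3292, 2845 and 1175 CPM in DZ replicates A, B and C, a mean of 2437 ± 1116 (SD, n = 3). In NY it stood at 1459, 1427 and 1297 CPM (1394 ± 85.7), and in PLL at 725, 1532 and 764 CPM (1007 ± 455). In aFM it stood at 675, 699 and 695 CPM (689 ± 12.9). The order of the group means was therefore DZ, NY, PLL and aFM. DZ replicate C fell within the range of PLL and below NY, PLL replicate B was above all NY libraries, and the aFM libraries were below every other library. The aFM values rest on 16, 19 and 23 counts, so how close these libraries lie is not resolved beyond counting error. For the level of the group, their 58 counts pooled have a Poisson 95% interval of 524 to 893 CPM.

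In a joint test of the 4 groups (edgeR quasi-likelihood, Benjamini-Hochberg adjustment over the 132 miRNAs), miR-16-2-3p passed with adjusted p = 0.0485, as did 12.1% of all miRNAs tested. It did not pass with the replicate letter as a block (adjusted p = 0.0661) or with library totals alone (adjusted p = 0.0812). Nor did it pass without any one of 9 of the 12 libraries; the exceptions were DZ replicate C and PLL replicates A and B. Adjusted p over the fits with a library left out ran from 0.0104 to 0.111.

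miR-16-2-3p was lower in aFM than in DZ, by a log2 fold change of -1.80 ± 0.42 (SE; edgeR adjusted p = 0.0252), and the libraries did not overlap. Of all miRNAs tested, 9.85% were lower and passed in this comparison, and 15.9% were lower with libraries that did not overlap. The median log2 fold change over all 132 was -0.14. In vesicle RNA, fewer vesicles of one source and less of a miRNA per vesicle cannot be told apart. Under other scalings, filters and tests the log2 fold change was -1.67 to -2.03 and passed in each. The value of -2.03 came with predicted loci included, where the median over annotated miRNAs was -0.53. Without DZ replicate A or B, or any aFM replicate, it ran from -1.49 to -1.88 and did not pass (adjusted p = 0.0734 to 0.0963).

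**Figure D4:**
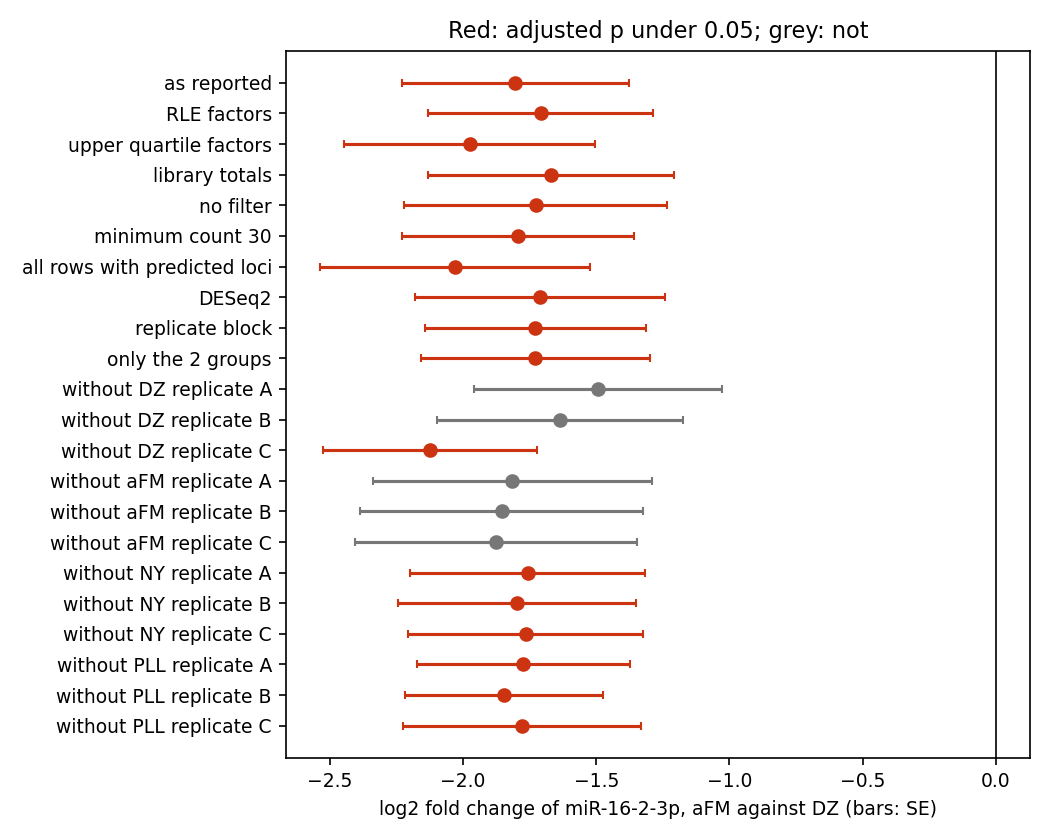
log2 fold change of miR-16-2-3p in aFM against DZ (x axis, bars are SE) as reported, under each alternative processing and without each library (y axis). All points lie between -2.12 and -1.49; red points passed an adjusted p of 0.05 and grey points did not.

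The other 5 comparisons did not pass for miR-16-2-3p. In PLL against DZ the log2 fold change was -1.26 ± 0.41 (edgeR adjusted p = 0.075), with overlapping libraries; 3.03% of all miRNAs tested were lower and passed there. It passed without DZ replicate C (-1.71, adjusted p = 0.0144) and without PLL replicate B (-1.93, adjusted p = 0.0118), and with DESeq2 (adjusted p = 0.0339). In either direction those fits called 11 of 146, 17 of 143 and 20 of 132 miRNAs in turn, and the main fit called 5 of 132. With the predicted loci included in filter, library sizes and fit the log2 fold change of miR-16-2-3p turned to 0.20, and the median over annotated miRNAs was 1.73. In NY against DZ it was -0.79 ± 0.41 (edgeR adjusted p = 0.447), again with overlap; lower and past the threshold were 0% of all miRNAs tested there. In either direction edgeR called 1 of the 132 and DESeq2 6, and 19 had an unadjusted edgeR p under 0.05.

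NY and PLL stood above aFM without overlap, by 1.01 ± 0.42 (edgeR adjusted p = 0.145) and 0.55 ± 0.42 (adjusted p = 0.374). Non-overlap in that direction was met by 24.2% of all miRNAs tested in NY against aFM and by 21.2% in PLL against aFM, and 0.758% and 6.06% were higher and passed. With predicted loci included both passed, at 1.59 (edgeR adjusted p = 0.0341) and 2.23 (adjusted p = 0.00534), and the medians over annotated miRNAs were 0.75 and 2.13. With those loci, 213 and 311 of all 853 rows tested passed in either direction. Without PLL replicate B the PLL difference from aFM was -0.081. PLL against NY was -0.47 ± 0.41 (edgeR adjusted p = 0.455), where 3.79% of all miRNAs tested were lower and passed, and 0.64 with predicted loci included, where the median stood at 1.49.

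Of the 131 tested miRNAs that are no member, the 5 most like miR-16-2-3p in log2 CPM over the 12 libraries were miR-486a-5p and miR-486b-5p, rows with the same counts (Pearson r = 0.87, Spearman rho = 0.89), miR-142a-5p (0.84 and 0.90), miR-484 (0.84 and 0.78) and miR-486a-3p (0.82 and 0.80). Without DZ replicates A and B, the libraries farthest from the median, r was 0.73, 0.85, 0.69 and 0.74 in the same order. These values describe the libraries, which share their scaling. miR-486 is abundant in red blood cells and miR-142 in blood cells generally.

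**Figure D5:**
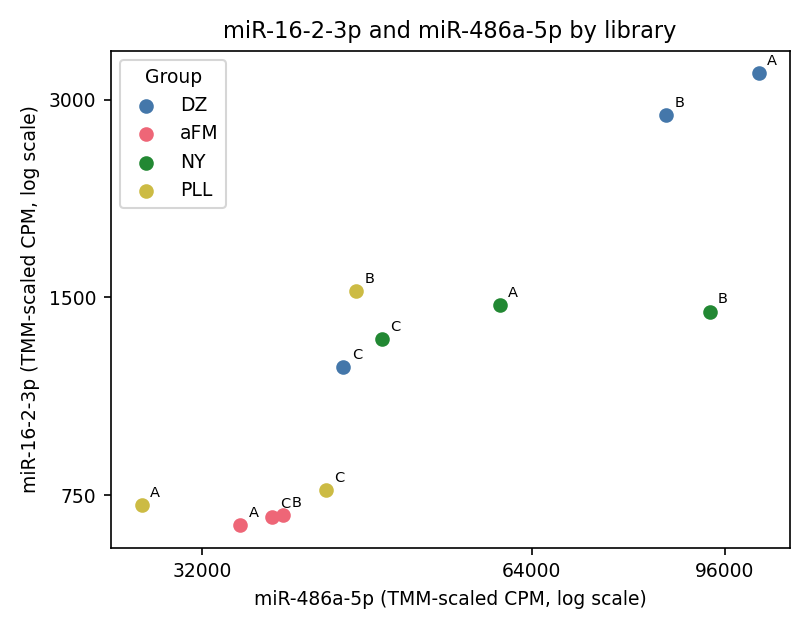
TMM-scaled CPM of miR-16-2-3p (y axis, log scale) against miR-486a-5p (x axis, log scale) in the 12 libraries, coloured by group and lettered by replicate. DZ replicates A and B are high in both, and the aFM libraries and PLL replicate A are low in both. Others depart from this: NY replicate B has 93035 CPM of miR-486a-5p with 1427 CPM of miR-16-2-3p. PLL replicate B has 44280 CPM of miR-486a-5p with 1532 CPM of miR-16-2-3p.

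Some blood cell markers were lower in aFM than in DZ, as miR-16-2-3p was, and others were not. The summed level of the 5 erythroid markers ran from 61573 to 137915 CPM in DZ and from 48228 to 81805 CPM in aFM, which overlap. Of the 3 tested, miR-486a-5p (-1.07) and miR-486a-3p were lower and passed. miR-451a did not pass (-0.30, edgeR adjusted p = 0.826), and its highest library was aFM replicate B, at 43458 CPM. The untested miR-144-5p had no count in DZ and 42.2 to 90.7 CPM in aFM. That is less than the 114 to 183 CPM that a single DZ library could have missed by chance, so no difference can be read from it. The sum of the 6 leukocyte markers ran from 3145 to 3719 CPM in DZ and from 1571 to 2427 CPM in aFM, where the tested marker, miR-142a-5p, was lower by a log2 fold change of -0.91 and passed. miR-142a-3p, untested, had no count in DZ and 169, 73.5 and 0 CPM in aFM, with the same limit on what DZ could have missed. Also untested, miR-223-3p stood at 122, 114 and 75.8 CPM in DZ and at 84.3, 73.5 and 0 CPM in aFM, which overlap. The other untested erythroid and leukocyte markers overlapped too, or had no count in either group. The part of blood cell RNA in the level of miR-16-2-3p was not tested. The endothelial marker miR-126a-3p went the other way (2.63). The mesenchymal sum overlapped, at 85786 to 101394 CPM in DZ and 78974 to 93998 in aFM, with 1 of 7 markers, miR-145a-5p, lower and past the threshold.

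Set against miR-486a-5p within each library, a comparison chosen after its likeness was seen, miR-16-2-3p had 31.9, 33.5 and 27.3 counts per 1000 of miR-486a-5p in DZ replicates A, B and C, and 19.4, 18.4 and 18.7 in aFM. These do not overlap, with a difference of log2 ratios of -0.69 (exact two-sided permutation p = 0.1, the smallest that 3 against 3 allows, so no call can be made). Of the other 129 tested miRNAs, 1.55% had ratios that were lower in aFM without overlap, namely miR-210-3p and miR-484, named after their values were seen. miR-486a-5p was itself lower in aFM than in DZ (log2 fold change -1.07, against a median of -0.14 over all 132). A ratio to it is therefore raised in aFM for most miRNAs, and the 1.55% is no neutral background. The NY libraries had 24.4, 15.3 and 27.8, and the PLL libraries 25.7, 34.6 and 18.4, so that these groups overlapped both DZ and aFM. Set against miR-142a-5p, the DZ and aFM libraries overlapped (difference -0.75, exact permutation p = 0.3).

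The levels of miR-16-5p were 0, 455 and 75.8 CPM for DZ replicates A, B and C, and 169, 221 and 90.7 CPM for aFM. They were 265, 62.1 and 199.5 CPM for NY, and 453, 25.1 and 255 CPM for PLL. The groups overlapped throughout. It did not pass the count filter. In the fit without a filter its 6 pairwise log2 fold changes lay between -0.064 and 0.47, with SE of 0.96 to 1.05 and edgeR adjusted p of 0.931 to 1. Those errors leave room for changes of the size seen in miR-16-2-3p. In DZ, where miR-16-2-3p was highest, the replicate with most miR-16-2-3p, A, had no count of miR-16-5p. Up to 183 CPM could have been missed in that library by chance. Replicate B, at 2845 CPM of miR-16-2-3p, had the highest miR-16-5p level of all libraries, 455 CPM. The 5 tested miRNAs most like miR-16-5p over the 12 libraries were miR-7a-5p, let-7f-5p, miR-98-5p, miR-26a-5p and miR-342-5p, with Pearson r of 0.53 to 0.78. Without DZ replicate A and PLL replicate B, the libraries farthest from the median, r was 0.019 to 0.60, so this likeness rests in part on those libraries.

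miR-195a-5p and miR-497a-5p, whose genes are neighbours on chromosome 11, were counted chiefly in PLL replicate A. miR-195a-5p had 16 of its 20 counts there, none in the other PLL libraries or in NY, 3 in aFM and 1 in DZ. miR-497a-5p had 6 of its 8 counts there, 1 in PLL replicate C, 1 in DZ and none in aFM or NY. PLL replicate A also held the 20 counts of miR-16-5p that were its highest count, though scaled it stood at 453 CPM there and 455 CPM in DZ replicate B. The 46 counts of 5p strands in PLL replicate A compare with 1 to 14 in the other libraries. PLL replicate A had 60436 annotated counts, the most of all libraries; scaled, its 5p strands stood at 1042 CPM, and the others ran from 50.2 to 683 CPM. Its sum of the mesenchymal markers was also the highest of all libraries, 156701 CPM, but miR-140-3p made up 99795 CPM of it. miR-140-5p, miR-199a-3p and miR-199a-5p were highest there too. The leading marker, miR-143-3p, was at its lowest of all libraries there, 28940 CPM. miR-145a-5p and miR-214-3p lay within the range of the other libraries. The part of this library's make-up in the counts was not tested. In the fit without a filter neither strand passed the joint test (edgeR adjusted p = 0.491 and 0.596).

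The remaining members were at the edge of detection. miR-15b-5p had counts in 6 libraries and at most 4 in one, with 5 counts in PLL, where each library had at least 1, 4 in NY, 2 in DZ and 1 in aFM. The 4 counts of miR-322-5p came from one aFM library, with 3, and one DZ library, with 1. miR-15a-5p had 2 counts in NY and 1 in PLL. None passed the joint test without a filter (edgeR adjusted p = 0.698 to 0.929), and differences among groups were not detectable at this depth.

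Relatives of the family were few as well. Of 20 listed opposite arms, related miRNAs and neighbours of miR-322 on chromosome X, 11 had a count, the highest total was 35, and none passed the filter. The seed-sharing miR-195b, miR-6342, miR-6353 and miR-6419 were at 0. miR-503-5p, beside miR-322 and close to the family in seed, had 1 count. miR-450a-5p had the 35 counts, with 18 in aFM, 14 in NY, 3 in PLL and none in DZ, but did not pass without a filter (joint edgeR adjusted p = 0.123). miR-15b-3p had 14 counts in PLL, where its libraries had 5, 6 and 3, then 6 in aFM, 4 in NY and none in DZ (joint edgeR adjusted p = 0.585). In DZ, miR-15b-3p was thus not counted where miR-16-2-3p from the neighbouring hairpin was highest. Depth limits this contrast, since a single DZ library could have missed 114 to 183 CPM by chance. Pooled over the DZ libraries, the Poisson 95% upper limit was 61.1 CPM. Means elsewhere were 43.5 CPM in NY, 68.8 in aFM and 120 in PLL.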

How the data were processed

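The authors deposited raw whole-number counts, one column per library. Per the submitters' processing notes, FastQC, STAR, StringTie and DESeq2 served as tools on build mm39. Not given in the sources used here were the step each tool served, versions, the miRNA caller and any trimming. The members and lists were chosen with earlier results of these data known. Predicted loci, 1531 of 3509 rows, carry no miRNA name and entered neither library sizes nor tests.

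Tests used edgeR 4.0.16 (R 4.3.3) with TMM factors. Rows were kept with filterByExpr (default minimum count of 10 and total of 15). One quasi-likelihood model held all 12 libraries, with group as its only term, and p-values were adjusted over the 132 miRNAs tested, at a threshold of 0.05. The arm ratio was tested by exact permutation. Alternatives were other scalings, filters, DESeq2 1.42.0, predicted loci included, a replicate block, only the groups compared, and each library left out. Scripts were tested on simulated data.

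Named by rule were the 7 members, the marker and relative lists and the 5 miRNAs most like each miR-16 arm. Deviations of same-letter libraries correlated by more than 0.1 for all letters in NY and DZ (0.13 to 0.34) but in no other pair of groups. No label states a pairing, and the block changed no call of a member between NY and DZ, but ended the joint call of miR-16-2-3p. Sequences are from RefSeq and host genes from GENCODE M21, both on GRCm38. The counts carry no coordinates, and their mm39 build was not used here.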

Additional observations from a re-analysis of the deposited data

How the results depend on the processing

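The aFM against DZ difference of miR-16-2-3p kept its direction under all alternatives, and the number of members called there was 0 to 1 when single libraries were left out. The joint test called 0 members with library totals alone (adjusted p = 0.0812), 0 with the replicate block (adjusted p = 0.0661), and 0 to 1 when single libraries were left out. In PLL against DZ, 1 member was called with DESeq2, which called 20 of all 132 miRNAs tested there. When single libraries were left out, 0 to 1 was called. The fits that called it, without DZ replicate C and without PLL replicate B, called 11 of 146 and 17 of 143 miRNAs. With predicted loci included, 1 was called in NY against aFM, where 213 of all 853 rows tested passed. In PLL against aFM 1 was called too, where 311 of the 853 rows passed. In that setting miR-16-2-3p turned to 0.20 in PLL against DZ and 0.64 in PLL against NY, and the cause was not tested. Its difference in PLL against aFM turned to -0.081 without PLL replicate B, with -0.081 to 0.67 over the libraries left out.

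The log2 arm ratio passed no exact permutation test (joint p = 0.0896 to 0.833 without single libraries). Its difference in PLL against aFM, -0.45, turned to 0.97 without PLL replicate B (-1.37 to 0.97 over libraries left out), and the 3p share differed by -3.18 percentage points, the opposite direction to the log ratio. In PLL against NY, 0.55, it turned to -0.021 without NY replicate B and -0.37 without PLL replicate A (-0.37 to 1.97 over libraries left out). Permuted within replicate letters, as a replicate block, the joint arm test gave an exact p = 0.576. The depth of 68 counts limits all statements on miR-16-5p.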

Other observations

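miR-103-3p and miR-107-3p carry the core of the family's seed shifted by 1 base (seed GCAGCAU) and are known to act on lipid and cell cycle genes. Together they had 332 counts, more than the 115 of the 6 seed-sharing 5p strands. miR-103-3p had 111 of its 296 counts in PLL replicate A, and 9 to 24 in each of the other 11 libraries. Its log2 fold change in PLL against DZ was 0.98 ± 0.56 (edgeR adjusted p = 0.246). Scaled, it stood at 2514 CPM in PLL replicate A, and at 603 and 732 CPM in PLL replicates B and C. These miRNAs were chosen after the sequences had been seen.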
